A study of Mus musculus with 6 samples.

Results

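The 10 genes described here encode the p53 protein (Trp53), proteins that restrain or modulate it (Mdm2, Mdm4, Ppm1d, Ccng1), the 3 GADD45 stress proteins (Gadd45a, Gadd45b, Gadd45g) and the antiproliferative proteins BTG1 and BTG2 (Btg1, Btg2). They were chosen by name, as the rows of the deposited table that carry these symbols. All 10 of 10 were found, among 54429 genes, and all 10 passed the filter on low levels (a mean of at least 1 FPKM over the libraries, where FPKM is fragments scaled to gene length and library size), as 11708 genes did.

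p53 is a transcription factor that is kept scarce by its own target MDM2, a ubiquitin ligase, and is held inactive by the related protein MDM4. Stress kinases release it, and it then switches on genes that halt the cell cycle, repair DNA or kill the cell. GADD45 and BTG proteins act downstream of p53 but also answer to other signals: Gadd45b is a known target of NF-kB in macrophages, and Btg2 is an immediate early gene, one that growth factors and stress switch on within minutes.

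RAW264.7 cells, a mouse macrophage line from a tumour induced by Abelson leukaemia virus, were grown for 3 d in either of 2 settings, with 3 libraries each. The Gel/S group, the control, had GelMA (methacryloyl gelatin) and static culture. The C/D group had GelMA/PEDOT:PSS+PLLA/PDA, a conductive composite, under dynamic conditions, which the labels describe as ultrasound at 48 kHz for 5 min. Gel and ultrasound differ at once between the groups, so their shares in a difference cannot be told apart. The table's US columns were read as C/D because only that group had ultrasound, and every direction below depends on it. Nothing in the labels states that replicates came from separate cultures, so p-values cover the spread between these libraries, which may be technical.

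The libraries held 12818831 to 16525699 counts. The macrophage markers Csf1r, Cd68 and Lyz2 were high in all 6 libraries. Adgre1 (8.60 to 20.2 FPKM) and Ptprc (12.7 to 19.7 FPKM) were lower, and Mrc1 (0.157 to 0.490 FPKM) was under the level filter. The summed level of 10 macrophage markers was 13540 to 14141 FPKM in Gel/S and 11022 to 11190 FPKM in C/D. Most of it was Lyz2, at a mean of 10197 FPKM in Gel/S and 8024 FPKM in C/D. Csf1r was the only 1 of 9 tested that passed the test used below (it fell). Lyz2 (log2 fold change −0.30, edgeR adjusted p = 0.0649) and Cd14 (−0.29, edgeR adjusted p = 0.0599) were lower in every C/D library but did not pass. The defining markers of other cells were near 0: Col1a2, Col3a1, Dcn, Epcam, Cdh1, Ms4a1 and Mpo had no count in any library, and the summed level was at most 1.39 FPKM for each of the stromal, epithelial, lymphocyte and neutrophil lists. Of 7 osteoclast markers, 4 were tested: 2 rose (Acp5, Atp6v0d2), 1 fell (Dcstamp) and Ocstamp did not pass. Under the filter, Ctsk (mean 0.180 and 0.404 FPKM) and Oscar (0.0907 and 0.360 FPKM) were higher in every C/D library, at 15 counts or fewer. Calcr was at 0. The sums were 52.4 to 55.0 FPKM in Gel/S and 46.5 to 52.1 FPKM in C/D, with Dcstamp alone at a mean of 29.9 and 14.9 FPKM. Mitochondrial transcripts took 5.59% to 9.02% of the counts in Gel/S and 9.17% to 10.4% in C/D. An exact 2-sided permutation test gave p = 0.1, which is as low as 3 and 3 libraries allow. Their part in the results below was not tested. In such bulk RNA, a change in the make-up of the cells and a change in RNA per cell cannot be told apart.

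The stretches upstream of the GADD45 and BTG genes are shown first, since 2 GADD45 genes fell together and the BTG pair did not move alike. Each is the 250 bases before the RefSeq start (GRCm38.p6), read 5′ to 3′ on the gene's strand, with motif matches on either strand in capitals. The motifs were chosen after these windows had been read, so the shares of all windows given below do not measure enrichment. They were the cAMP response element (TGACGTCA), the AP-1 site (TGANTCA), the CCAAT box (CCAAT), the octamer (ATTTGCAT), the TATA box (TATAAA), the E-box (CACGTG), the kB site and the p53 half-site, and no matches overlapped each other in these windows.
Gadd45a, chr6:67037408-67037657, minus strand: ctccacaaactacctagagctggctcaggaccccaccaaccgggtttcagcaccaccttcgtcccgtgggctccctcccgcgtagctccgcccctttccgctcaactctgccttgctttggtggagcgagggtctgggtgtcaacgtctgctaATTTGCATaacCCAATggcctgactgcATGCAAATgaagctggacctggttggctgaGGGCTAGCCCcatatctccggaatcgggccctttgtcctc
Gadd45b, chr10:80929841-80930090, plus strand: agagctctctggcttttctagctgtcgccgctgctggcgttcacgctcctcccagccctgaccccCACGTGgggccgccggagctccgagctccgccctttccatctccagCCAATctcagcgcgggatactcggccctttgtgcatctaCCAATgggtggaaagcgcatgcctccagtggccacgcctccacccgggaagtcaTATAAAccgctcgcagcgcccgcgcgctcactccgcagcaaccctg
Gadd45g, chr13:51846425-51846674, plus strand: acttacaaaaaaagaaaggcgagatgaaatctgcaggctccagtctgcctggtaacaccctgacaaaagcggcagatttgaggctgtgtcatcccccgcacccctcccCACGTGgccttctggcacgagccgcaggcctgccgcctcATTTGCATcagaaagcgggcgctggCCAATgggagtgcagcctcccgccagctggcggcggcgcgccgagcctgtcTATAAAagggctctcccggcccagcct
Btg1, chr10:96616751-96617000, plus strand: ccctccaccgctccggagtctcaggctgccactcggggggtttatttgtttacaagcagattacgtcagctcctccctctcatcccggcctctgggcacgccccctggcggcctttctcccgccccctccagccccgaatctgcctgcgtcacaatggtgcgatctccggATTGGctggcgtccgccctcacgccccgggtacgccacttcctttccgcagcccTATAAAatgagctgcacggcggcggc
Btg2, chr1:134079156-134079405, minus strand: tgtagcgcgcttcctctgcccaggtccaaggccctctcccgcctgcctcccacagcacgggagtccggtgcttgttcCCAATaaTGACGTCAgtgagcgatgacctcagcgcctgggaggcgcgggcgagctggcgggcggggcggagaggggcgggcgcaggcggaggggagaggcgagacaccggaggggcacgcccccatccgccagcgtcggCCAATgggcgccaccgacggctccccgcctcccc

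All 3 GADD45 windows held a CCAAT box, which 33.8% of 32851 RefSeq windows of this length hold. Gadd45a had 2 octamers, 63 to 70 and 90 to 97 bases before the start, and Gadd45g had 1, at 96 to 103 bases, against 1.60% of all windows with any. Gadd45b and Gadd45g each had an E-box (6.02% of windows) and a TATA box (12.4%). The Gadd45a window held a p53 half-site 31 to 40 bases before the start (7.13% of windows), and neither the Gadd45b nor the Gadd45g window did. No kB site was found in these 5 windows, where 7.25% of all windows have one. Btg2 had a cAMP response element 159 to 166 bases before its start (1.55% of windows), and Btg1 did not, while both had a CCAAT box. Among the other members, Ppm1d held the cAMP response element too, and Trp53, Mdm2, Ccng1 and Ppm1d each held 1 p53 half-site. Mdm4 has 2 RefSeq starts, and its windows held an AP-1 site at 1 of them. These matches describe letters and were not tested as binding sites or for a link to the changes in level. Sequence farther upstream or within the genes was not searched, so a window without a match does not mean a gene without a site.

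**Figure D1:**
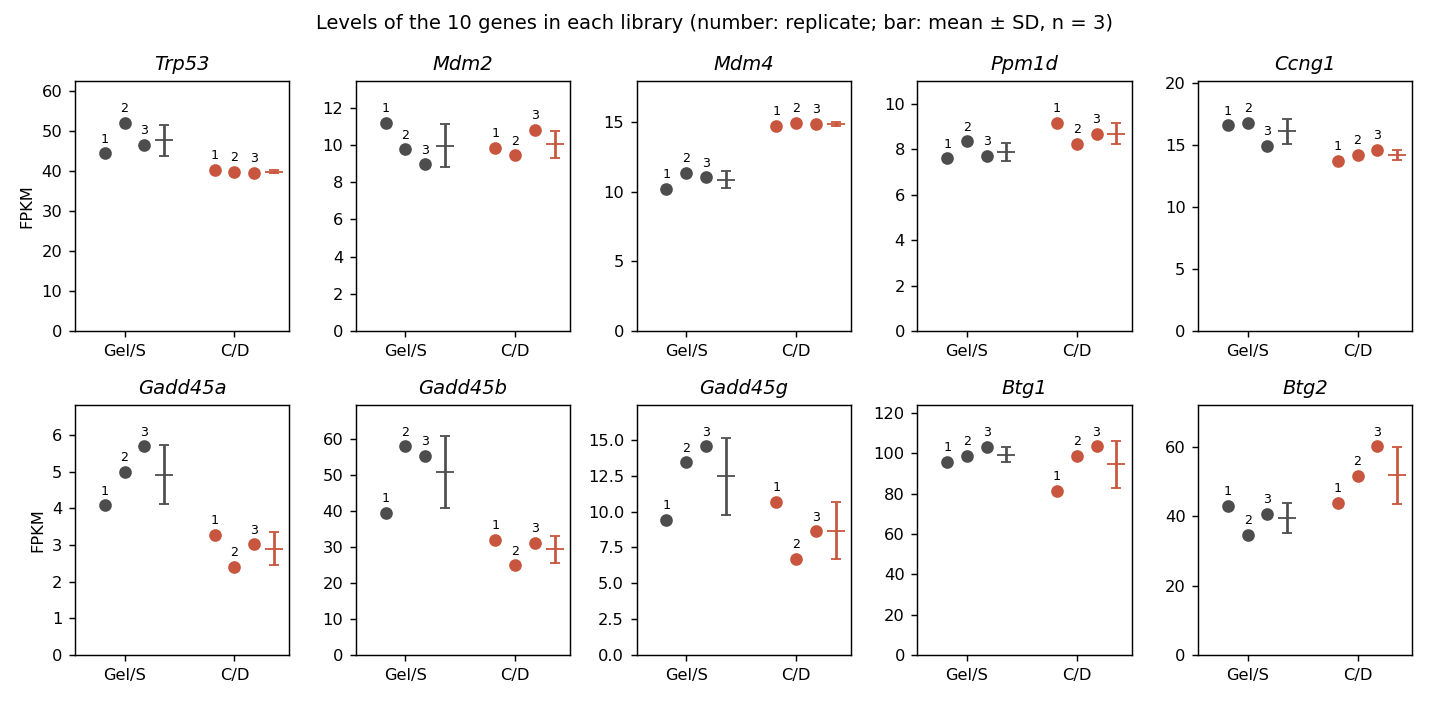
FPKM (y axis, from 0) of each gene in the 3 Gel/S and 3 C/D libraries, with the replicate number above each point and the mean ± SD beside them. The groups are apart for Trp53, Mdm4, Ccng1, Gadd45a, Gadd45b and Btg2 and overlap for Mdm2, Ppm1d, Gadd45g and Btg1.

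C/D against Gel/S asks how these macrophages differ between the conductive gel under ultrasound and the plain gel at rest. Mdm4 and Btg2 rose in C/D, Gadd45a and Gadd45b fell, and the other 6 genes did not pass an adjusted p of 0.05 (edgeR quasi-likelihood test, adjusted over all 11708 genes). Thus 4 of 10 genes were called, where 27.0% of all tested genes were; 2 rose and 2 fell, against 13.1% and 13.9% of all genes. The FPKM of the groups did not overlap for 6 of the 10 genes, against 46.2% of all tested genes. The median log2 fold change of the 10 was −0.08, and that of all tested genes was 0.01. The plot of fold changes gives each gene with its error.

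**Figure D2:**
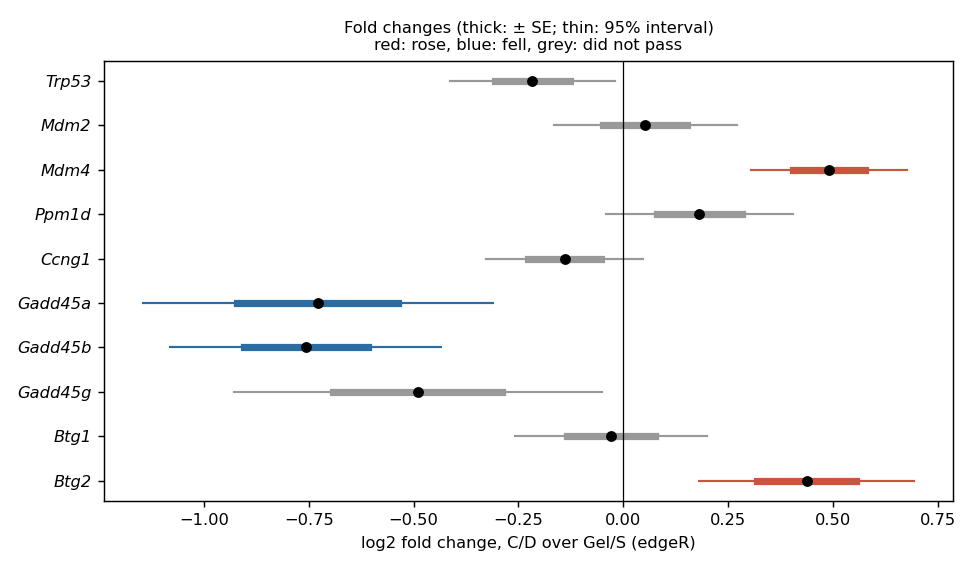
Log2 fold change of C/D over Gel/S for the 10 genes (x axis, edgeR), with ± SE as thick bars and the 95% interval as thin lines. Mdm4 at 0.49 and Btg2 at 0.44 lie above 0, Gadd45b at −0.76 and Gadd45a at −0.73 lie below it, and the grey genes did not pass the test.

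Trp53 (chromosome 11, 69580359 to 69591873, GRCm38) was among the more abundant of the 10 transcripts, above 89.9% of tested genes in mean FPKM. Its level was 44.4, 52.0 and 46.5 FPKM in Gel/S 1 to 3 and 40.2, 39.8 and 39.5 FPKM in C/D 1 to 3. Every C/D library was below every Gel/S library, and the C/D libraries lay closer together. The log2 fold change was −0.22 (SE 0.0901, 95% interval −0.41 to −0.02), and it did not pass after adjustment (edgeR adjusted p = 0.0921). The authors' deposited table gives a log2 fold change of −0.26 for Trp53 with an adjusted p of 0.0332, so the call differs there. It also passed without Gel/S 1 (log2 fold change −0.27, edgeR adjusted p = 0.0184).

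Mdm2 and Mdm4 encode the related pair of p53 inhibitors, and only Mdm4 passed the test. Mdm4 (chromosome 1, 132959484 to 133030561) had 10.2, 11.4 and 11.01 FPKM in Gel/S 1 to 3 and 14.7, 14.9 and 14.9 FPKM in C/D 1 to 3. All C/D libraries were above all Gel/S libraries, by more than the range within either group. It rose from 10.9 ± 0.602 to 14.8 ± 0.131 FPKM (SD, n = 3), by 0.49 on the log2 scale with an SE of 0.0852 (edgeR adjusted p = 0.00225). That call stood with any 1 library left out, and its size was larger than that of 80.9% of tested genes. The authors' deposited table lists Mdm4 at 0.45.

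Mdm2 (chromosome 10, 117688875 to 117710758) had 11.2, 9.76 and 8.95 FPKM in Gel/S 1 to 3 and 9.85, 9.43 and 10.8 FPKM in C/D 1 to 3. The groups overlapped throughout. Its log2 fold change was 0.05 (95% interval −0.17 to 0.27, edgeR adjusted p = 0.719), an interval that leaves out the change measured for Mdm4. The sign for Mdm2 turned on the TPM scale (−0.075), where FPKM are brought to the same total in each library.

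A ratio of 2 genes within a library does not depend on how libraries were scaled. Mdm4 over Mdm2, as a ratio of FPKM, was 0.910, 1.16 and 1.23 in Gel/S 1 to 3 and 1.49, 1.58 and 1.37 in C/D 1 to 3. Mdm4 over Trp53 was 0.228 ± 0.00927 in Gel/S and 0.372 ± 0.00646 in C/D. Both ratios were higher in every C/D library than in any Gel/S library. For Mdm4 over Trp53 this follows from the levels above, since Mdm4 was higher and Trp53 lower in every C/D library. It is not separate evidence. Mdm2 over Trp53, at 0.211 ± 0.0359 and 0.252 ± 0.0196, overlapped between the groups.

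**Figure D3:**
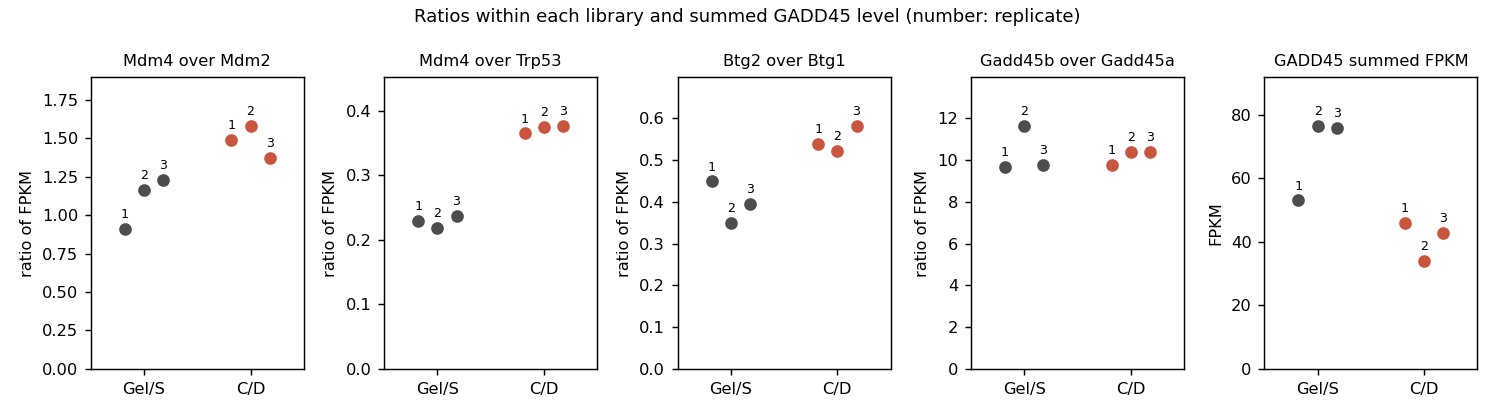
Ratios of FPKM within each library, and the summed FPKM of the 3 GADD45 genes (y axes, from 0), for Gel/S and C/D with replicate numbers. Mdm4 over Mdm2, Mdm4 over Trp53 and Btg2 over Btg1 are higher in all C/D libraries, Gadd45b over Gadd45a overlaps, and the GADD45 sum is lower in all C/D libraries.

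Ppm1d (chromosome 11, 85311244 to 85347066) encodes WIP1, a phosphatase that p53 induces and that removes phosphates placed by damage kinases. Its level was 7.59, 8.34 and 7.69 FPKM in Gel/S 1 to 3 and 9.16, 8.23 and 8.65 FPKM in C/D 1 to 3. C/D 2 lay below Gel/S 2, so the groups overlapped, and the log2 fold change was 0.18 (95% interval −0.04 to 0.41, edgeR adjusted p = 0.201).

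Ccng1 (chromosome 11, 40748552 to 40755311) encodes cyclin G1, a p53 target that brings the phosphatase PP2A to MDM2. It had 16.6, 16.8 and 15.0 FPKM in Gel/S 1 to 3 and 13.8, 14.3 and 14.6 FPKM in C/D 1 to 3. The C/D values were all lower, though C/D 3 and Gel/S 3 nearly met. The log2 fold change was −0.14 (95% interval −0.33 to 0.05, edgeR adjusted p = 0.241).

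The GADD45 proteins are small acidic proteins that bind PCNA, the CDK1 and cyclin B1 kinase, and the stress kinase MAP3K4. Gadd45b (chromosome 10, 80930073 to 80932204) was the most abundant of the 3, with 39.5, 58.0 and 55.5 FPKM in Gel/S 1 to 3 and 31.9, 24.9 and 31.3 FPKM in C/D 1 to 3. The groups were apart, with Gel/S 1 nearest to C/D. Gadd45b fell from 51.0 ± 10.1 to 29.4 ± 3.86 FPKM (SD, n = 3), or −0.76 on the log2 scale with an SE of 0.148 (edgeR adjusted p = 0.00409). Its size exceeded that of 93.1% of tested genes. It stayed a call without each library in turn, at −0.92 without Gel/S 1 and −0.65 without Gel/S 2.

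Gadd45a (chromosome 6, 67035096 to 67037457), the GADD45 gene with the best known p53 site, was the lowest of all 10 genes. It had 4.08, 4.99 and 5.69 FPKM in Gel/S 1 to 3 and 3.27, 2.40 and 3.02 FPKM in C/D 1 to 3, again with every C/D library lower. It fell from 4.92 ± 0.808 to 2.89 ± 0.449 FPKM (SD, n = 3), or −0.73 on the log2 scale with an SE of 0.191 (edgeR adjusted p = 0.0164). Only 68 to 80 counts per C/D library and 115 to 156 per Gel/S library stand behind these values, so counting error alone is 11.6% and 8.57% of a library's value. The call was lost without Gel/S 3 (−0.61, edgeR adjusted p = 0.0734) and without C/D 2 (−0.60, edgeR adjusted p = 0.0768). Exons of the antisense gene E230016M11Rik cover 337 of its 1764 exon bases; that gene had 10 to 25 counts in Gel/S and 22 to 29 in C/D, and the use of strand in counting is not given in the sources used.

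Gadd45g (chromosome 13, 51846678 to 51848468) did not pass. Its level was 9.39, 13.4 and 14.5 FPKM in Gel/S 1 to 3 and 10.7, 6.68 and 8.61 FPKM in C/D 1 to 3. The groups overlapped because Gel/S 1 was below C/D 1. The log2 fold change was −0.49 (SE 0.201, 95% interval −0.93 to −0.05, edgeR adjusted p = 0.0890), and without Gel/S 1 it was −0.67 (edgeR adjusted p = 0.00865). The authors' deposited table gives Gadd45g −0.53 with an adjusted p of 0.0562.

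Across the family, Gel/S 1 was the lowest Gel/S library for all 3 genes, and C/D 2 the lowest C/D library. Summed over the 3 genes, the level was 52.97, 76.5 and 75.7 FPKM in Gel/S 1 to 3 and 45.9, 34.0 and 42.9 FPKM in C/D 1 to 3. Gadd45b made up 74.6 ± 1.32% of the sum in Gel/S and 71.9 ± 2.03% in C/D, and Gadd45a 7.25 ± 0.632% and 7.07 ± 0.0492%, both with overlapping ranges. The share of Gadd45g did not overlap, at 17.7%, 17.6% and 19.2% in Gel/S 1 to 3 and 23.3%, 19.6% and 20.1% in C/D 1 to 3. Gel/S 3 and C/D 2 nearly met, however. Counting error alone was 6.65% of a library's Gadd45g level in Gel/S and 8.28% in C/D. A shift in the shares was not tested. Gadd45b over Gadd45a was 10.4 ± 1.11 in Gel/S and 10.2 ± 0.355 in C/D.

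BTG1 and BTG2 slow proliferation and recruit the CCR4-NOT complex, which shortens the poly(A) tails of mRNAs. Btg1 (chromosome 10, 96617006 to 96622809) was the most abundant of the 10 transcripts, with 95.9, 98.9 and 103 FPKM in Gel/S 1 to 3 and 81.4, 98.7 and 103 FPKM in C/D 1 to 3. C/D 1 alone was low, and the other libraries could not be told apart by group. The log2 fold change was −0.03 (95% interval −0.26 to 0.20, edgeR adjusted p = 0.856), and it was 0.06 without C/D 1.

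Btg2 (chromosome 1, 134075170 to 134079120), a p53 target that also answers to growth factors, had 43.0, 34.7 and 40.7 FPKM in Gel/S 1 to 3 and 43.8, 51.6 and 60.2 FPKM in C/D 1 to 3. C/D 1 was barely above Gel/S 1, and the other C/D libraries were well above all of Gel/S. Btg2 rose from 39.5 ± 4.31 to 51.9 ± 8.21 FPKM (SD, n = 3), by 0.44 on the log2 scale with an SE of 0.118 (edgeR adjusted p = 0.0181). The call was lost without Gel/S 3 (edgeR adjusted p = 0.0541), C/D 2 (0.0602) or C/D 3 (0.0916), and with limma on log2(FPKM + 1) (adjusted p = 0.0752). Btg2 over Btg1 within a library was 0.449, 0.350 and 0.395 in Gel/S 1 to 3 and 0.538, 0.523 and 0.582 in C/D 1 to 3, without overlap.

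In Gel/S the order of mean FPKM was Btg1, Gadd45b, Trp53, Btg2, Ccng1, Gadd45g, Mdm4, Mdm2, Ppm1d and Gadd45a. Neighbours whose libraries overlapped there were Gadd45b and Trp53, Gadd45g and Mdm4, and Mdm4 and Mdm2. In C/D the order was Btg1, Btg2, Trp53, Gadd45b, Mdm4, Ccng1, Mdm2, Ppm1d, Gadd45g and Gadd45a. Among neighbours there, only Ppm1d and Gadd45g, at 8.68 and 8.66 FPKM, overlapped. By mean, Btg2 thus stood in place 4 in Gel/S and 2 in C/D, and Gadd45b in place 2 and 4. In Gel/S 1, however, Btg2 (43.0 FPKM) was above Gadd45b (39.5 FPKM).

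The lists from here on were written with earlier results of these data known, so their counts beside those of all genes are not tests of the lists. Of 17 tested kinases and modifiers upstream of p53, 3 rose (Hipk2, Crebbp, Rpl11), 3 fell (Chek1, Daxx, Usp10) and 11 did not pass. Their median log2 fold change was −0.04. The 35.3% called is near the 27.0% of all tested genes. Chek1, a checkpoint kinase that phosphorylates p53, went from 7.30 ± 0.586 to 4.83 ± 0.755 FPKM (log2 fold change −0.55), and Daxx, a partner of MDM2, from 10.5 ± 0.118 to 7.49 ± 0.237 FPKM (−0.44). Hipk2, a kinase of p53, had a log2 fold change of 0.60 and Crebbp, an acetyltransferase, one of 0.38. Hipk2 lost its call without Gel/S 3 or C/D 1 (highest edgeR adjusted p = 0.0570) and Crebbp without Gel/S 3 (0.0624), and Rpl11 without Gel/S 3 or any of the C/D libraries (highest 0.115). The risen count was then 0 with Gel/S 3 left out, 1 with C/D 1 left out and 2 with C/D 2 or C/D 3 left out. The fallen count was 2 in each of these fits, as Usp10 lost its call (highest edgeR adjusted p = 0.0903). It was 4 with Gel/S 2 left out. With limma on log2(FPKM + 1), 0 rose and 3 fell. Cdkn2a, whose product ARF holds MDM2 back, had 0 counts in all 6 libraries, which allows up to 0.182 to 0.234 CPM in a library (3 counts of its total, counting error only).

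Of 22 tested other p53 targets, 5 rose, 0 fell and 17 did not pass (edgeR; 0 also fell by DESeq2, with 3 risen), with a median log2 fold change of 0.04. At an unadjusted p under 0.05, 7 of the 22 were higher and 1 was lower, where 20% of all tested genes were higher and 21% lower. Trp53inp1, a stress-induced partner of p53, went from 1.01 ± 0.251 to 1.87 ± 0.192 FPKM (log2 fold change 0.93). Ak1 (0.58), Ddit4 (0.43) and Ercc5 (0.31) rose too, and Dcxr was the fifth. The best known targets did not pass: Cdkn1a, the CDK inhibitor p21, was at 12.9 and 10.9 FPKM (log2 fold change −0.20, edgeR adjusted p = 0.311) and Bax, a pore former of cell death, at 72.0 and 72.3 FPKM (0.05, edgeR adjusted p = 0.729). The counts depended on single libraries: 2 rose when Gel/S 3, C/D 1 or C/D 2 was left out, 1 when C/D 3 was, and 2 genes fell when Gel/S 2 was. Ercc5 kept its call only with Gel/S 1 left out (highest edgeR adjusted p = 0.169), and Dcxr only with Gel/S 2 left out (highest 0.154). Ak1 lost it with Gel/S 3, C/D 1 or C/D 3 omitted (highest 0.122), and Ddit4 with C/D 2 or C/D 3 omitted (highest 0.0980). With limma 1 rose on log2(FPKM + 1) and 0 on TPM. The list's median was −0.09 on TPM, where that of all tested genes was −0.12. A further 6 listed targets (Fas, Tnfrsf10b, Phlda3, Eda2r, Plk2, Perp) were under the level filter.

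**Figure D4:**
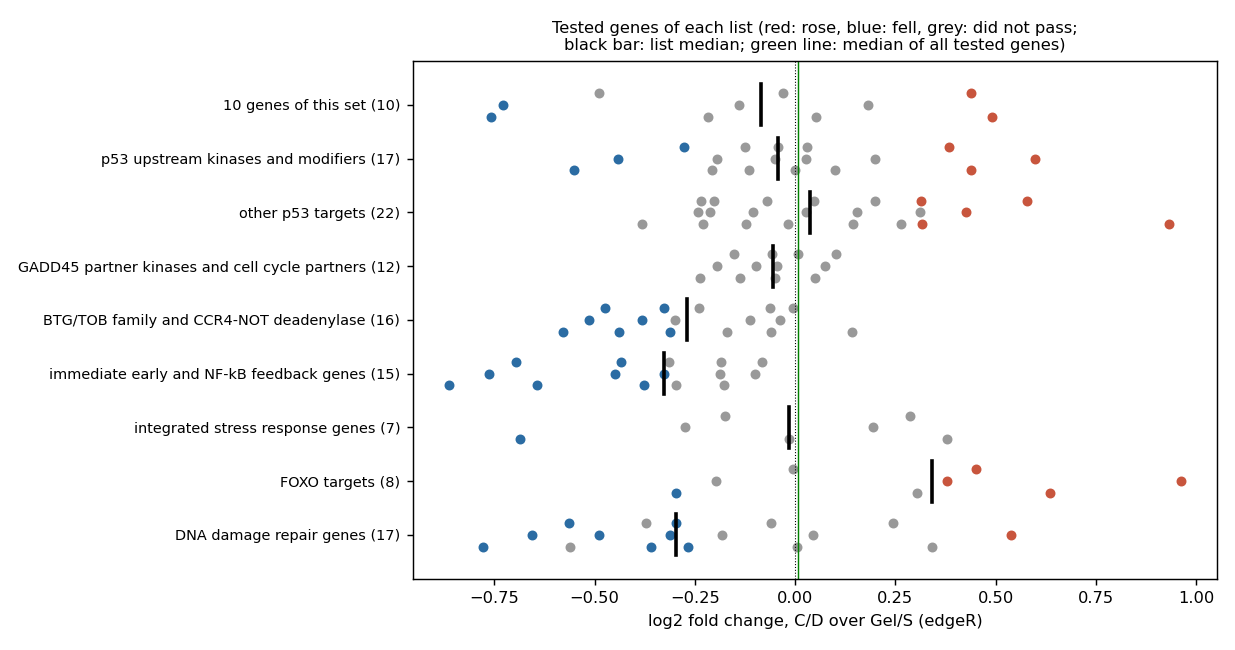
Log2 fold change of C/D over Gel/S (x axis, edgeR) for each tested gene of the 10 and of 8 neighbouring lists, with the number tested in brackets, list medians as black bars and the median of all tested genes as a green line. The medians range from −0.33 for immediate early and NF-kB feedback genes to 0.34 for FOXO targets.

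Partners of the GADD45 proteins gave no call by edgeR among genes past the level filter. Of 12 tested, 0 rose and 0 fell, also by DESeq2. At an unadjusted p under 0.05, 0 were higher and 1 was lower, beside 20% and 21% of all tested genes. Their median log2 fold change was −0.05. Pcna, the sliding clamp of replication, was at 149 ± 13.2 and 122 ± 10.5 FPKM (log2 fold change −0.24, edgeR adjusted p = 0.0988), and it passed without Gel/S 1 (−0.28, edgeR adjusted p = 0.0369), without the level filter (−0.28, edgeR adjusted p = 0.0409) and on TPM (−0.37, limma adjusted p = 0.0323). Map2k6 and Tdg were under the filter. Tdg, a DNA glycosylase gene chosen after its values were seen, had 1.77, 0.704 and 0.934 FPKM in Gel/S 1 to 3 and 0.329, 0.370 and 0.433 FPKM in C/D 1 to 3. All its C/D libraries were lower, and without the filter it fell by 1.59 on the log2 scale (edgeR adjusted p = 1.8e-09). Whether reads of Tdg are shared with the pseudogene Tdg-ps was not tested. The stress kinase gene Mapk14 was at 36.1 ± 6.71 and 30.6 ± 0.854 FPKM (−0.19, edgeR adjusted p = 0.214).

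Relatives and partners of the BTG proteins, apart from Btg1 and Btg2 above, were lower where they passed the test. Btg3 and Btg4 were under the level filter, so no further BTG gene was tested. Of 16 tested TOB genes, CCR4-NOT subunits and BTG partners, 7 fell, 0 rose and 9 did not pass (also 7 and 0 by DESeq2). At an unadjusted p under 0.05, 9 were lower and 0 higher, beside 21% and 20% of all tested genes. The median log2 fold change was −0.27. The fallen genes were the BTG relatives Tob1 and Tob2, the deadenylase subunits Cnot6, Cnot7 and Cnot9, the poly(A)-binding protein gene Pabpc1 and the BTG1-binding methyltransferase gene Prmt1. Cnot9 went from 18.2 ± 2.05 to 11.8 ± 1.33 FPKM (log2 fold change −0.58) and Tob2 from 10.2 ± 0.453 to 7.59 ± 0.174 FPKM (−0.38). Cnot6 (−0.47) and Prmt1 (−0.44) kept their calls without each library in turn, while the count was 4 when Gel/S 3, C/D 1 or C/D 2 was left out.

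Signals that are known to switch on Gadd45 and Btg genes outside p53 were covered by 3 further lists. Of 15 immediate early and NF-kB feedback genes, 8 fell, 0 rose and 7 did not pass (7 and 0 by DESeq2). At an unadjusted p under 0.05, 9 were lower and 0 higher, beside 21% and 20% of all tested genes. The median log2 fold change was −0.33. Egr1, an immediate early transcription factor, went from 48.6 ± 5.61 to 29.1 ± 4.93 FPKM (−0.70), and Tnfaip3, the NF-kB brake A20, from 6.01 ± 0.547 to 3.73 ± 0.427 FPKM (−0.64). Egr2 (−0.76) and Atf3 (−0.45) fell too, and the list's count was 4 when C/D 2 was left out. Of 7 integrated stress response genes, 1 fell (Ppp1r15a, also called GADD34, 43.3 ± 2.47 to 26.1 ± 1.73 FPKM, −0.69) and 0 rose, also by DESeq2, with 2 lower and 0 higher at an unadjusted p under 0.05, a share of 28.6% that is near the 21% of all tested genes. With Gel/S 1 left out 3 fell, with C/D 1 left out 2 did, and with Gel/S 2 left out 1 gene rose.

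Of 8 tested FOXO targets, 4 rose, 1 fell (Ccng2) and 3 did not pass, with a median log2 fold change of 0.34. Among all tested genes, 13.1% rose and 13.9% fell. Pik3ip1, an inhibitor of PI3 kinase, went from 6.50 ± 0.283 to 12.3 ± 1.46 FPKM (0.96), Txnip, the thioredoxin inhibitor, from 617 ± 20.7 to 931 ± 28.2 FPKM (0.63), and the CDK inhibitor gene Cdkn1b from 36.6 ± 2.74 to 48.7 ± 3.93 FPKM (0.45). Bcl2l11 rose by 0.38 on the log2 scale. The 4 risen genes stood with any 1 library left out (2 rose on TPM), and the fallen count was 0 when Gel/S 3 or any of the C/D libraries was left out.

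Of 17 DNA damage repair genes, 8 fell, 1 rose (Lig4) and 8 did not pass, with a median log2 fold change of −0.30. Beside these, 13.9% of all tested genes fell and 13.1% rose. Rad54l went from 5.78 ± 1.00 to 3.27 ± 0.435 FPKM (−0.78) and Brca1 from 3.85 ± 0.628 to 2.37 ± 0.0604 FPKM (−0.66), both of homologous recombination. Fanca (−0.49) fell as well, but its call needed C/D 2 (edgeR adjusted p = 0.0817 without it). With C/D 1, 2 and 3 left out in turn, the fallen count was 3, 2 and 5, and it was 4 with Gel/S 3 left out. The risen count was 0 in 4 of the 6 such fits, 1 when C/D 2 and 2 when Gel/S 2 was left out, and on TPM 3 fell and 0 rose.

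Mdm4 and Gadd45b were the members called in all 14 fits tried, shown in the plot of fold changes under other settings. The authors' deposited table, with its own test, calls Mdm4, Btg2, Gadd45a, Gadd45b and Trp53 at an adjusted p under 0.05, with each in the direction given here.

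**Figure D5:**
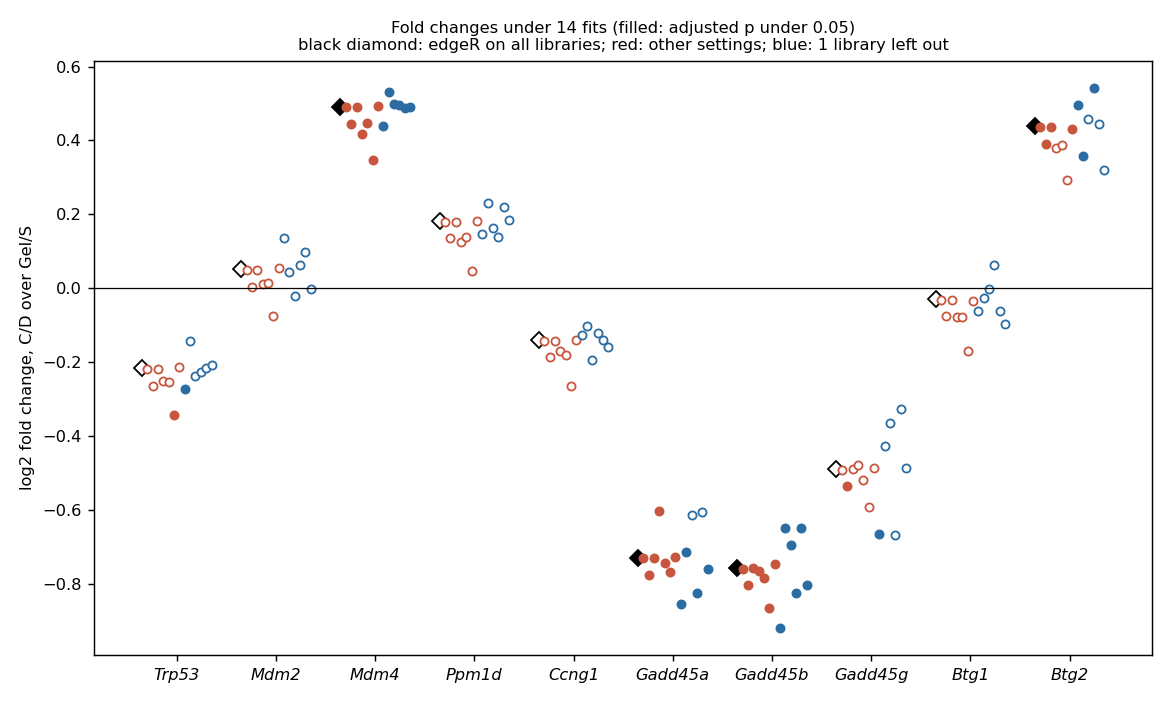
Log2 fold change of C/D over Gel/S (y axis) for each of the 10 genes under 14 fits: edgeR on all libraries (black diamond), 7 other settings (red) and 6 fits with 1 library left out (blue), filled where the adjusted p is under 0.05. Mdm4 and Gadd45b are filled throughout, Trp53 and Gadd45g are filled in 2 fits each, and Mdm2 and Btg1 lie on both sides of 0.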

How the data were processed

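RNA of RAW264.7 cells was measured in 6 libraries made with a SMARTER mRNA-Seq kit, per the labels' protocols. The deposited counts, so named in the file headers, are whole numbers per gene and were taken as not normalized. The deposited FPKM are the authors' values per gene length, which equals the union of GENCODE M21 exons for all 10 genes. The signal columns are the authors' group means of scaled counts. The deposited log2 fold changes are the authors' Gel/S over C/D, with the sign turned here. The submitters' processing notes name the build GRCm38. The deposited p-values are from the authors' test. That test, the aligner, the counter and strand use: not given in the sources used.

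Entries of 1 symbol were summed (100 symbols). Genes with a mean of at least 1 FPKM were tested with edgeR 4.0.16 (quasi-likelihood, TMM factors, R 4.3.3), with Benjamini-Hochberg adjustment over 11708 genes and a threshold of 0.05. A standard error is the log2 fold change over the root of its F statistic, and 95% intervals use the fit's degrees of freedom. The pipeline was tested on simulated counts. Alternatives were DESeq2 1.42.0, limma 3.58.1 on log2(FPKM + 1), log2(FPKM + 0.1) and log2(TPM + 1), other size factors, no level filter, a replicate block and leaving out each library. The members and lists were chosen with earlier results of these data known. Named genes are all 10 members and, per list, up to 4 called genes with the smallest adjusted p, or 2 where none was called. A gene that this rule names is not reported here. Others named, in counts of 5 or fewer, in the full list of fallen BTG partners and as best known targets, were chosen after their values were seen.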

Additional observations from a re-analysis of the deposited data

How the results depend on the processing

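The count of called members was 4 with DESeq2, with its size factors, on TPM and with the replicate block, 5 without the level filter and 3 with limma on log2(FPKM + 1) or log2(FPKM + 0.1). It ranged from 2 to 6 with 1 library left out: 2 (Mdm4, Gadd45b) without Gel/S 3 or without C/D 2, and 6 without Gel/S 1. The 41 called genes of the other lists were 34 with the replicate block, 27 with limma on log2(FPKM + 1), 25 on TPM, and 22 to 46 with 1 library left out. The cause was not tested. The labels do not state whether replicate numbers pair the libraries. Deviations from group means correlated at −0.06, −0.06 and 0.05 for numbers 1 to 3, and at −0.09 to 0.13 for unlike numbers. With 3 libraries per group, such correlations cannot exclude pairing. The log2 fold change of Mdm2 turned to −0.075 on TPM and ranged from −0.0216 to 0.1348 with 1 library left out, and that of Btg1 from −0.097 to 0.064. The share of all calls that rose was 48.4% with edgeR, 40.9% and 40.3% with limma on log2(FPKM + 1) and log2(FPKM + 0.1), and 29.5% with limma on TPM, where the median of all genes was −0.12. Trp53 passed on TPM (−0.34, adjusted p = 0.0210), and Btg2 did not (0.29, adjusted p = 0.209). Gadd45g passed without the level filter (−0.54, edgeR adjusted p = 0.00430). Counting error was largest for Gadd45a among the 10 genes (8.57% and 11.6% of a library's value).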
